A study of Mus musculus with 17 samples.

Results

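The regions described here were stretches of DNA deep inside protein-coding genes where all 4 STAG2 CUT&RUN libraries of mouse urothelium had a peak at nearly the same place. They were chosen from the 288674 peaks of STAG2-WT replicate 1 on chromosomes 1 to 19. Of these peaks, 90650 had their summit, the position of highest coverage, inside a protein-coding gene and over 5000 bp from any gene end, and these are called the eligible peaks below. A summit of each of the other 3 STAG2 libraries lay within 250 bp at 1163 of the eligible peaks, and these 1163 are the intragenic regions of this account. The STAG2 peak lists thus chose the regions, so STAG2 values are given as a description and were not tested. The LIN54 and p130 libraries played no part in the choice.

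CUT&RUN, a method that sequences the DNA cut loose around an antibody's target, was carried out on urothelium peeled from mouse bladders, with about 500000 cells per condition. The mice were Stag2-WT or Stag2-KO, here WT and KO, and all groups were taken 1 week after TMX induction, the controls included. The STAG2 antibody gave 2 WT and 2 KO libraries, the LIN54 antibody 3 WT and 2 KO, and the p130 antibody 3 WT and 3 KO. The labels call them biological replicates. By the labelled batch number, STAG2 and LIN54 made up batch 1, batch 2 held p130-WT replicate 1 alone, and batch 3 held the remaining 5 libraries of p130. LIN54-KO and p130-KO name the antibody and the Stag2 genotype, so LIN54 and p130 themselves were intact. The labels do not name the Cre driver, the floxed allele or the age of the mice, and they do not say which libraries came from the same animals.

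Cohesin is a ring-shaped complex that holds sister chromatids together and folds chromosomes into loops, and STAG2 is one of the alternative subunits that bind the ring and help to load it at enhancers and at sites of the insulator protein CTCF. DREAM is the complex of a pocket protein (p130 or p107), an E2F with its DP partner and the MuvB core, and it holds cell cycle genes silent in resting cells. LIN54 is the DNA-binding subunit of MuvB, which reads the CHR element of promoters, and p130 is the pocket protein encoded by Rbl2. Regions inside genes and far from their ends can hold enhancers, loop anchors or additional start sites.

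Most of the 1163 regions were far from any start site in the annotation, but 47 of the 1114 on chromosomes with promoter windows (4.22%, against 0.437% of eligible peaks) had their summit within 250 bp of an annotated start inside the gene, and in all 47 the start belonged to the host gene. The promoter windows at 5 such starts are shown because these regions led the rankings by STAG2 fold (Rsad1, Ptprs), by LIN54 fold (Arntl, Sp2, Ptprs) or by p130 fold (Sp2, Ptprs, Hdac4). Each runs 5′ to 3′ along the gene, is the 300 bp RefSeq window that reaches past the start (build GRCm38.p6, the assembly of mm10), and has the CCAAT box, the GC box and the AP-1 site, read on both strands and not overlapping each other here, in capitals. The windows lie at chr11:94549158-94549457 on the minus strand for Rsad1, chr17:56462172-56462471 (minus) for Ptprs, chr11:96977639-96977938 (minus) for Sp2, chr7:113207215-113207514 (plus) for Arntl and chr1:92180292-92180591 (minus) for Hdac4.
Rsad1: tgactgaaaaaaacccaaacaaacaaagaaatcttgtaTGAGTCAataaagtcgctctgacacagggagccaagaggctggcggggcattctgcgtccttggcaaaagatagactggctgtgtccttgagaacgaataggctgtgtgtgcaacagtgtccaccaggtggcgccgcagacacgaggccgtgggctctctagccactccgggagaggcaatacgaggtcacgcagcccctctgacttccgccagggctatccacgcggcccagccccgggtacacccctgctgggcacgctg
Ptprs: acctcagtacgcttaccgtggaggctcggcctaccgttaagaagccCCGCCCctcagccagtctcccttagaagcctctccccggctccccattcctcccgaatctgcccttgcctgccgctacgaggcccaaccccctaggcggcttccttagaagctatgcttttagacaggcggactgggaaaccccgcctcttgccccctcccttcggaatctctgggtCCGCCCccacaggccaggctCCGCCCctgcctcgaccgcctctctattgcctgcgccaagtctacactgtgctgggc
Sp2: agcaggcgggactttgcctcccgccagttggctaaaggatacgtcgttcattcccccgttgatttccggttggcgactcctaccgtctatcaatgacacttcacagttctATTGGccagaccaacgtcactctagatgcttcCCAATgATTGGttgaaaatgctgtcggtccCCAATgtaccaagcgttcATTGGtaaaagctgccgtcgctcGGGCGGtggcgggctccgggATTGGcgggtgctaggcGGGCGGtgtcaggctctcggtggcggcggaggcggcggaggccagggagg
Arntl: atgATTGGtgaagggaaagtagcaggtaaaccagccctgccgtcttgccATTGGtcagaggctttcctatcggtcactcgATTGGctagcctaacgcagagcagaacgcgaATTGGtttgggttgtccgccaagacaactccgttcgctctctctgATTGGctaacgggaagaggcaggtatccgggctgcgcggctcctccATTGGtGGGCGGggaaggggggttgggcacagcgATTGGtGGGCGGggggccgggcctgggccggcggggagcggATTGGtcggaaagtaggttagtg
Hdac4: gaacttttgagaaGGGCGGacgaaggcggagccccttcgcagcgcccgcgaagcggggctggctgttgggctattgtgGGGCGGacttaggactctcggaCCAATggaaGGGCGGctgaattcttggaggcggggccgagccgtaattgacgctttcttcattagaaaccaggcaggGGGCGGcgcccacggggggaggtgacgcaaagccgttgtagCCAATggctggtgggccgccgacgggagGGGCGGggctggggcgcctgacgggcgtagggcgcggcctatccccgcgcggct

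The Arntl window held 8 CCAAT boxes and 2 GC boxes (GGGCGG), the Sp2 window 6 CCAAT boxes and 2 GC boxes, and the Hdac4 window 2 CCAAT boxes and 5 GC boxes. The Ptprs window held 3 GC boxes, and the Rsad1 window 1 match to the AP-1 site TGANTCA. None of these 5 windows held the CHR letters TTTGAA on either strand. Over the 47 windows, GGGCGG was present in 28 (59.6%, against 35.7% of all 32851 windows in the table), CCAAT in 20 (42.6%, against 37.4%), TGANTCA in 8 (17.0%, against 7.81%), TATAAA in 5 (10.6%, against 13.6%), TTTGAA in 2 (4.26%, against 17.9%) and TGACGTCA in 2 (4.26%, against 1.79%). The median GC content of the 47 windows was 62.0%, against 52.7% over all windows. Letters in a window are a description and do not show that a factor was bound.

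In the whole series, the lists reached down to weak peaks (p up to 0.05), and 285257 to 506896 peaks per library lay on chromosomes 1 to 19. At such numbers a summit can fall within 250 bp of another by position alone. The count of regions marked in each library is therefore set beside the share of all eligible peaks. The urothelial origin was checked at gene ends in the STAG2-WT libraries. Peaks at q 0.01 in both libraries lay within 500 bp of an end of 7 of 15 luminal urothelium markers (Upk1a, Upk2, Upk3b, Krt8, Krt19, Cldn4 and Sprr1a) and of none of the 12 basal, 12 fibroblast, 10 smooth muscle, 14 immune and 10 endothelial markers, against 12.6% of all 21887 protein-coding genes. In both STAG2-KO libraries the same measure marked 1 of the 15 luminal markers and none of the others. The basal keratins were thus not marked by this measure in either genotype. At q 0.01, STAG2-KO replicate 1 marked 0.130% of eligible peaks, against 5.69% and 2.01% in the STAG2-WT libraries. No share of all genes is given for KO, so the KO count does not show a loss at luminal markers. Over the Stag2 gene, on chromosome X, 6 and 11 deposited summits were listed in the STAG2-WT libraries and 1 in each STAG2-KO library, which does not show whether the gene was deleted.

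The 1163 regions lay in 908 genes, since 722 genes held 1 region, 132 held 2 and 54 held 3 or more, and 6 regions lay in more than 1 gene. Their median distance to the nearest gene end was 17.8 kb, compared with 21.3 kb for the eligible peaks, and 170 lay over 50 kb from any end. The median host gene was 114 kb long. All 19 autosomes held members, from 37 on chromosome 14 to 91 on chromosome 5, or 0.926% of eligible peaks on chromosome 1 to 1.79% on chromosome 19. Fold enrichment, the deposited ratio of fragments at a summit to the local background of that library, had medians of 3.39 and 3.92 in STAG2-WT replicates 1 and 2, and 2.64 and 3.20 in STAG2-KO replicates 1 and 2. The highest folds in these 4 libraries were 15.1, 24.7, 10.1 and 11.6. The peaks were also wide, with median widths of 771, 637, 437 and 672 bp, where the marked eligible peaks had 336, 360, 341 and 430 bp.

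The choice by STAG2 required a peak in the STAG2-KO libraries too. A peak of the STAG2 antibody in Stag2-KO tissue is not shown to be bound STAG2. The regions are thus places marked by the antibody in both genotypes, and are not shown to be sites of STAG2 or cohesin. The source of the KO peaks was not tested, and the control samples of the series were not analysed here. The strength of the KO peaks differed between the replicates. At q 0.01, the rate of false discoveries accepted in a list, 631 regions (54.3%, against 5.69% of eligible peaks) passed in STAG2-WT replicate 1 and 650 (55.9%, against 2.01%) in replicate 2. In the KO libraries, 98 regions (8.43%, against 0.130%) passed in replicate 1 and 457 (39.3%, against 0.999%) in replicate 2. The WT libraries were close to each other, while the KO libraries lay far apart, one of them not far under the WT libraries. A q of 0.01 was reached in both WT libraries at 464 regions, in both WT and both KO libraries at 77, in both WT and no KO library at 157, in both KO and no WT library at 1, and in no STAG2 library at 298. The mean fold was lower in KO than in WT at 908 of the 1163 regions. Both KO folds lay under both WT folds at 468 regions, and over both at 74. A fold is relative to one library's own background, so these counts compare libraries and were not tested between genotypes. The choice started from peaks of STAG2-WT replicate 1. No share of eligible peaks stands beside these counts over several STAG2 libraries. They therefore do not show a difference particular to the regions.

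**Figure D1:**
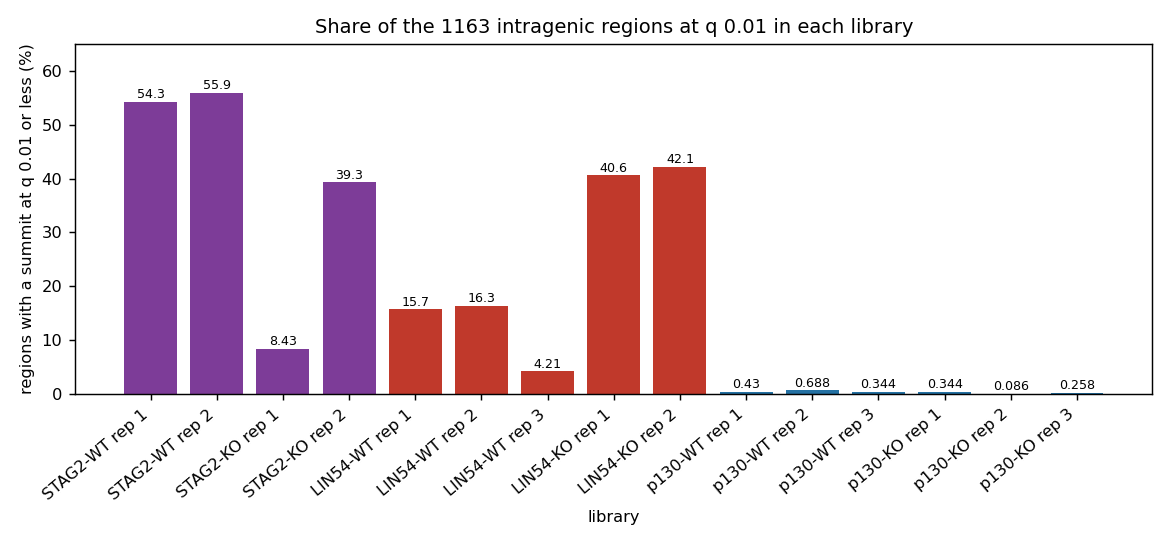
Percent of the 1163 intragenic regions (vertical axis) with a summit at q 0.01 or less within 250 bp in each of the 15 libraries (horizontal axis), one bar per library, coloured by antibody. The STAG2-WT bars stand at 54.3% and 55.9%, the STAG2-KO bars at 8.43% and 39.3%, the LIN54-KO bars at 40.6% and 42.1%, and no p130 bar reaches 1%.

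The region in Krt78, which encodes a type II keratin of stratified epithelium, had the best mean rank of fold in the STAG2-WT libraries. It lay at chr15:101983717-101985006, 12377 bp from the nearest gene end, with folds of 13.6 and 24.7 in the WT libraries and 5.13 and 9.58 in the KO libraries. LIN54 folds there were 6.20, 8.56 and 3.51 in WT and 8.97 and 9.54 in KO. Summits of p130 were listed only in p130-WT replicates 2 and 3 (2.15 and 2.64) and p130-KO replicate 3 (2.25). Both STAG2-KO folds at Krt78 were thus under both WT folds, while both LIN54-KO folds were over all 3 LIN54-WT folds.

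The second, in Rhobtb1, which encodes an atypical small GTPase with BTB domains, lay at chr10:69185306-69186660, 23515 bp from the nearest end. Its STAG2 folds were 15.1 and 16.6 in WT and 10.1 and 11.6 in KO, the best rank in the KO libraries as well. LIN54 folds were 4.81, 4.74 and 3.59 in WT and 11.6 in KO replicate 1, and no summit was listed within 250 bp in KO replicate 2. By this measure the 2 LIN54-KO libraries did not repeat each other at Rhobtb1. A summit not listed within 250 bp is not shown to be absent from the region.

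The region in Rsad1, which encodes a radical SAM domain protein, is the first of the promoter windows printed above, with its summit 52 bp from the internal start. Its STAG2 folds were 10.6 and 19.7 in WT and 5.17 and 5.21 in KO, and its LIN54 folds 3.37, 3.69 and 2.48 in WT and 2.59 and 5.28 in KO. Of the p130 libraries, only WT replicate 2 had a summit there (3.09). The other regions of the leading 10 in WT lay in Mcoln2 (an ion channel of endosomes and lysosomes), Zfp516 (a zinc finger protein), Foxk1 (a forkhead transcription factor), Bcl9l (a coactivator of beta-catenin), Cmtm4 (a membrane protein of the MARVEL family), Ptprs (a receptor tyrosine phosphatase) and Snx10 (a sorting nexin). Of these 7, Mcoln2 had STAG2-WT folds of 11.7 and 17.3 and STAG2-KO folds of 5.20 and 5.78. At Foxk1 they were 9.76 and 12.8 in WT, and 4.14 and 5.17 in KO. Cmtm4 stood closer together, with 8.05 and 15.6 in WT, and 7.45 and 7.58 in KO. All 10 leading regions had both KO folds under both WT folds, as the choice by WT rank favours.

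The 10 regions ranked best in the STAG2-KO libraries included 4 of the WT leaders (Rhobtb1, Zfp516, Cmtm4 and Krt78). The other 6 lay in Iffo2 (an intermediate filament family member), Sulf1 (a sulfatase that trims heparan sulfate), Tmprss2 (a membrane serine protease), Parm1 (a mucin-like membrane protein), Arhgap26 (a GTPase-activating protein) and Tjap1 (a tight junction protein). Parm1 had STAG2 folds of 4.30 and 9.61 in WT and 8.04 and 7.07 in KO, so the genotypes overlapped there. At Sulf1 the folds were 4.81 and 11.6 in WT and 6.51 and 9.35 in KO, again overlapping. The Tmprss2 region, at chr16:97593516-97594807, had 8.26 and 8.36 in WT and 6.39 and 8.51 in KO. Of the 291 regions with the best WT rank, 156 were also among the 291 with the best KO rank. Across the 1163 regions, the Spearman correlation of fold was 0.591 between the WT libraries and 0.488 between STAG2-WT replicate 2 and STAG2-KO replicate 2. These correlations describe points that share the choice of regions, the local base composition and the mappability.

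LIN54 summits were listed near most of the intragenic regions, although LIN54 took no part in choosing them. A summit lay within 250 bp at 674 regions (58.0%, against 13.2% of eligible peaks) in LIN54-WT replicate 1, at 650 (55.9%, against 15.2%) in replicate 2 and at 486 (41.8%, against 13.0%) in replicate 3. In LIN54-KO it was 766 (65.9%, against 11.6%) in replicate 1 and 817 (70.2%, against 12.7%) in replicate 2. The mean over the 5 libraries was 58.3% ± 10.9 (SD, n = 5), compared with 12.6% ± 1.38 for the 89487 other eligible peaks. The share was higher in 5 of 5 libraries (two-sided exact permutation test with the sign changed by library, p = 0.0625, the smallest it allows, adjusted p = 0.0625 over 8 such tests). Peaks shared by fewer STAG2 libraries were marked less often. LIN54 was listed at 31.0% ± 5.79 (SD, n = 5) of the 4336 eligible peaks matched in 2 of the other 3 STAG2 libraries, and the difference of 27.3 percentage points from the regions was in the same direction in 5 of 5 libraries (exact permutation p = 0.0625, adjusted p = 0.0625).

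p130 summits were listed at far fewer of the regions. In p130-WT replicates 1, 2 and 3 there were 281 (24.2%, against 17.5% of eligible peaks), 265 (22.8%, against 11.8%) and 184 (15.8%, against 10.9%). In p130-KO replicates 1, 2 and 3 there were 199 (17.1%, against 8.97%), 172 (14.8%, against 9.18%) and 155 (13.3%, against 9.3%). The mean was 6.81 percentage points over that of the other eligible peaks (11.2% ± 3.24, SD, n = 6), and the share was higher in 6 of 6 libraries (exact permutation p = 0.03125, adjusted p = 0.0625). Against the peaks matched in 2 other STAG2 libraries, at 15.2% ± 3.97 (SD, n = 6), the difference was 2.76 percentage points, also in 6 of 6 libraries (exact permutation p = 0.03125, adjusted p = 0.0625). Antibody and batch cannot be told apart, since every LIN54 library was of batch 1 and no p130 library was.

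**Figure D2:**
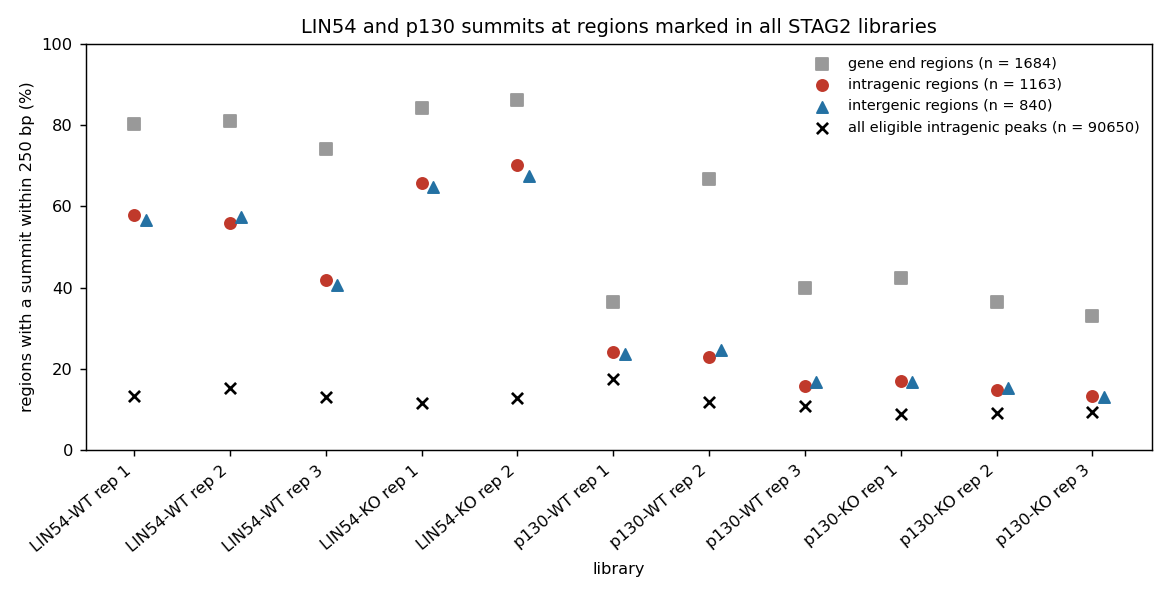
Percent of regions (vertical axis) with a summit within 250 bp in each of the 11 LIN54 and p130 libraries (horizontal axis), one symbol per region set. The intragenic regions (circles) run from 41.8% to 70.2% in LIN54 and from 13.3% to 24.2% in p130, with the intergenic regions (triangles) next to them, the regions at gene ends (squares) over them and all eligible peaks (crosses) under them.

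The LIN54 share was higher with each further STAG2 library that repeated a peak. In LIN54-KO replicate 2 it was 8.96% of the 64084 eligible peaks with no match in another STAG2 library, 15.8% of the 21067 with 1 match, 37.4% of the 4336 with 2 and 70.2% of the 1163 with 3. In LIN54-WT replicate 1 the same 4 shares were 10.9%, 14.7%, 29.3% and 58.0%. The p130 shares differed less, as in p130-WT replicate 2, with 10.8%, 13.1%, 18.5% and 22.8%. The order held in each of the 11 libraries. Within the 1163 regions, the 291 with the best STAG2-WT rank were marked at 79.4% to 82.8% in LIN54-KO and at 71.1% to 80.4% in LIN54-WT, and the 291 with the worst rank at 45.4% to 51.5% and 20.6% to 37.5%.

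**Figure D3:**
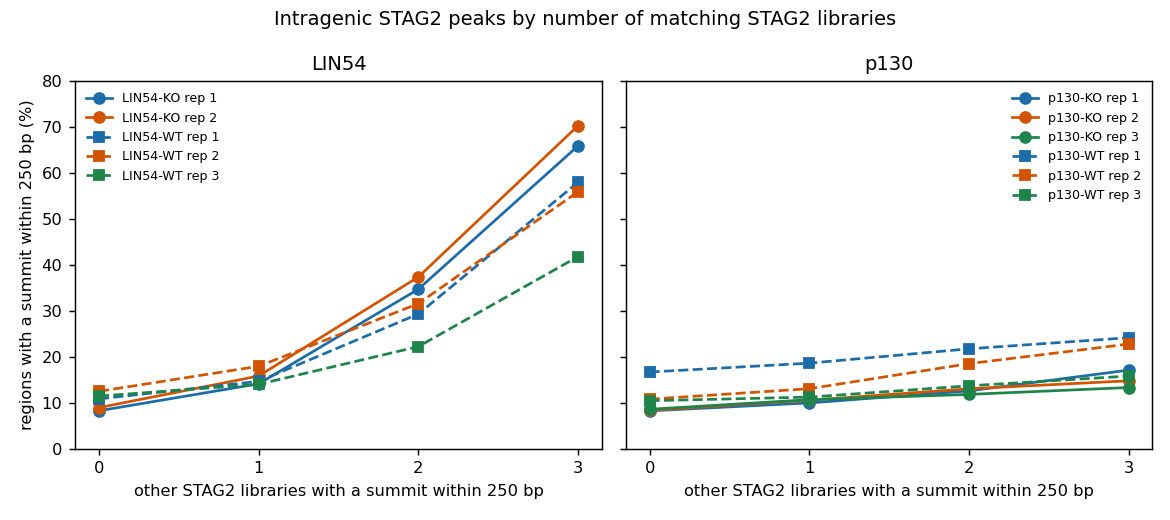
Percent of eligible peaks with a LIN54 summit (left) or a p130 summit (right) within 250 bp (vertical axes) by the number of other STAG2 libraries with a matching summit (horizontal axes), one line per library, dashed for WT and solid for KO. Each line climbs from 0 to 3 matches, in LIN54-KO replicate 2 from 8.96% to 70.2% and in p130-WT replicate 2 from 10.8% to 22.8%.

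LIN54 marked a mean of 51.9% ± 8.80 (SD) of the regions over the 3 WT libraries, and of 68.1% ± 3.10 (SD) over the 2 KO libraries. Both KO libraries were over all 3 WT libraries, a difference of 16.2 percentage points with an exact permutation p = 0.1 (two-sided), the smallest that 3 against 2 libraries allows. As a log2 ratio to the share of eligible peaks, which sets each library against its own list, the means were 1.90 ± 0.22 (SD, n = 3) and 2.48 ± 0.02 (SD, n = 2), a difference of 0.59 (exact permutation p = 0.1). At q 0.01 the gap was wider. LIN54-WT had 183 regions (15.7%, against 0.482% of eligible peaks), 190 (16.3%, against 0.639%) and 49 (4.21%, against 0.117%), and LIN54-KO had 472 (40.6%, against 1.87%) and 490 (42.1%, against 1.68%). The means were 12.1% ± 6.83 (SD, n = 3) and 41.4% ± 1.09 (SD, n = 2), a difference of 29.3 percentage points (exact permutation p = 0.1). All eligible peaks also had larger shares at q 0.01 in KO, and the regions' share divided by theirs was 32.6, 25.6 and 36.0 in WT and 21.7 and 25.1 in KO, so by that ratio the regions did not stand higher in KO. LIN54-WT replicate 3 was the lowest of the 5 libraries on both shares. The difference of 16.2 percentage points in the share was 9.23 with summits matched within 100 bp and 15.4 within 500 bp. For regions at q 0.01 in both STAG2-WT libraries it was 9.45 (exact permutation p = 0.2, as at 100 bp). Among the 291 regions with the best STAG2-WT rank the genotypes overlapped. There the shares were 79.4%, 80.4% and 71.1% in LIN54-WT, and 79.4% and 82.8% in LIN54-KO.

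For p130 the mean share of regions was 20.9% ± 4.47 (SD) over the 3 WT libraries, and 15.1% ± 1.91 (SD) over the 3 KO libraries. The difference was -5.85 percentage points (exact permutation p = 0.2, with 0.1 the smallest possible). The genotypes overlapped, because p130-KO replicate 1 lay over p130-WT replicate 3. Within batch 3 alone, which leaves out p130-WT replicate 1, the difference was -4.23 percentage points. As a log2 ratio to the eligible peaks the means were 0.65 ± 0.26 and 0.71 ± 0.21 (SD, n = 3 each), a difference of 0.06 (exact permutation p = 0.8) that turned to -0.03 within batch 3. At q 0.01 only 5, 8 and 4 regions were marked in p130-WT and 4, 1 and 3 in p130-KO, or 16 different regions in any library. Beside these stand 0.00993%, 0.021% and 0.011% of eligible peaks in WT and 0.00662%, 0.0011% and 0.00441% in KO.

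Counted by region, 232 of the 1163 (19.9%, against 0.578% of eligible peaks) had a LIN54 summit in all 5 LIN54 libraries and 105 (9.03%, against 55.4%) in none. A summit in both LIN54-KO and no LIN54-WT library was seen at 58 (4.99%, against 1.17%), and in all LIN54-WT and no LIN54-KO library at 8 (0.688%, against 0.257%). At q 0.01, 159 regions (13.7%, against 0.494%) were marked in both LIN54-KO and no LIN54-WT library, none in all LIN54-WT and no LIN54-KO library (against 0.0011%), and 30 (2.58%, against 0.0496%) in all 5. Both LIN54-KO libraries had a summit at q 0.01 at 348 regions (29.9%, against 0.92%). For p130, 4 regions (0.344%, against 0.00441%) were marked in all 6 libraries and 391 (33.6%, against 50.2%) in none.

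Over LIN54 and p130 together, the median region was marked in 4 of 11 libraries and the median eligible peak in 1. There were 280 regions (24.1%, against 1.01% of eligible peaks) marked in 6 or more and 45 (against 29.9%) in none. At least 3 p130 libraries marked 107 regions (9.2%, against 2.76% of eligible peaks). These were 33 of the 232 regions seen in all 5 LIN54 libraries (14.2%), 68 of the 826 seen in 1 to 4 (8.23%) and 6 of the 105 seen in none (5.71%). No share of eligible peaks by number of LIN54 libraries is given, so the order is not shown to be particular to the regions. The libraries share the local background of a place, so this order is a description.

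**Figure D4:**
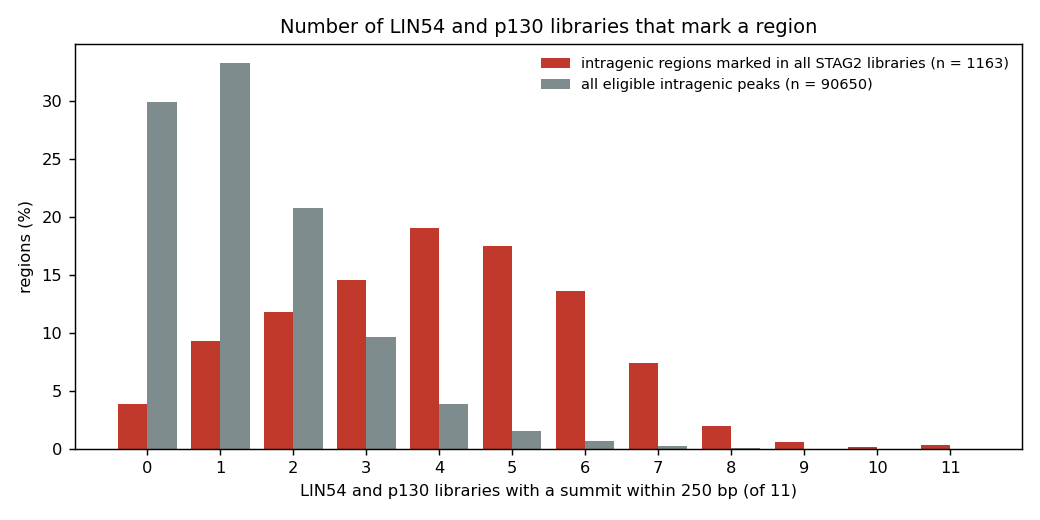
Percent of regions (vertical axis) marked in 0 to 11 of the LIN54 and p130 libraries (horizontal axis), for the 1163 intragenic regions and for the 90650 eligible peaks. The regions centre on 4 libraries and the eligible peaks on 1, and 24.1% of the regions but 1.01% of the eligible peaks lie at 6 or more.

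The 5 regions with the best mean rank of LIN54 fold, among those marked in all 5 LIN54 libraries, lay in Arntl, Sp2, Ptprs, Sema6d and Myof, and the summits of the first 3 lay at internal starts. Arntl encodes BMAL1, a core activator of the circadian clock. Its region, at chr7:113206296-113207525, had LIN54 folds of 11.3, 12.2 and 13.3 in WT and 16.3 and 28.1 in KO. The STAG2 folds there were lower, at 5.03 and 9.49 in WT and 3.86 and 7.73 in KO. p130 summits were listed in all 3 p130-WT libraries (1.96, 3.87 and 1.74) and in p130-KO replicate 3 alone (2.45). The summit lay 158 bp from the start whose window, with 8 CCAAT boxes, is printed above.

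Sp2 encodes a zinc finger transcription factor of the Sp family. Its region, at chr11:96975882-96979205, had LIN54 folds of 9.59, 12.2 and 6.79 in WT and 20.6 and 23.3 in KO, so the KO libraries stood over all WT libraries. Sp2 was first by p130 fold too, with 2.12, 5.36 and 6.76 in WT and 8.31, 6.24 and 7.06 in KO. The p130 genotypes overlapped there, and the lowest value belonged to p130-WT replicate 1, of batch 2. The STAG2 folds were 6.85 and 11.2 in WT and 4.42 and 8.49 in KO.

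Ptprs had LIN54 folds of 9.12, 11.8 and 7.79 in WT and 13.7 and 14.3 in KO, and p130 folds of 3.04, 4.61 and 4.37 in WT and 2.82, 2.97 and 3.17 in KO. Its STAG2 folds of 9.39 and 12.3 in WT and 4.08 and 5.98 in KO did not overlap. The p130 folds at Ptprs did overlap between genotypes, through p130-WT replicate 1 and p130-KO replicate 3. Hdac4, a class II histone deacetylase gene, had p130 folds of 2.12, 4.13 and 4.08 in WT and 7.22, 3.28 and 5.02 in KO, and LIN54 folds of 7.47, 8.92 and 7.35 in WT and 24.1 and 14.5 in KO. Phf19, which encodes an accessory protein of Polycomb repressive complex 2, had p130 folds of 2.35, 2.84 and 1.64 in WT and 2.54, 2.11 and 3.10 in KO. Sp2, Ptprs, Hdac4 and Phf19 were the only 4 regions with a summit in all 15 libraries, and none was at q 0.01 in all 15. The Phf19 summit lay 8794 bp from the nearest annotated start, so no window is shown for it.

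Sema6d, which encodes a semaphorin, and Myof, which encodes the membrane repair protein myoferlin, had strong LIN54 peaks away from starts. At Sema6d (chr2:124309484-124310288, 87392 bp from any gene end) the LIN54 folds were 14.1, 7.83 and 4.76 in WT and 18.01 and 17.1 in KO. At Myof they were 9.06, 7.93 and 5.64 in WT and 17.0 and 15.5 in KO. p130 was listed at Sema6d in p130-WT replicate 1 (2.06) and p130-KO replicate 1 (2.82), and at Myof in p130-WT replicate 2 alone (2.33). At all 5 LIN54 leaders both KO folds were over all 3 WT folds. These regions were chosen by LIN54 rank, and each fold stands against its own library's background.

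**Figure D5:**
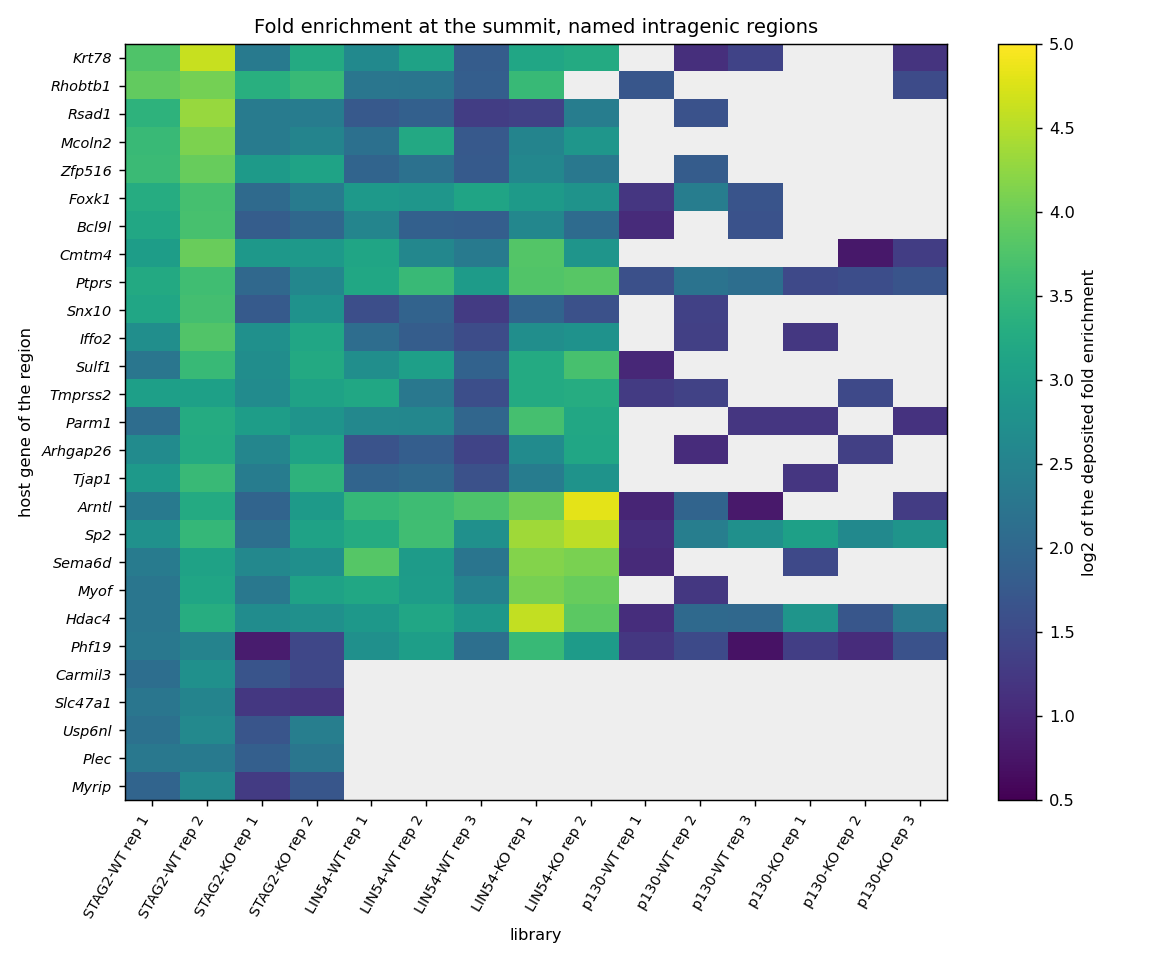
Log2 of the deposited fold enrichment (colour) at 27 named regions (vertical axis, by host gene) in the 15 libraries (horizontal axis), with light grey where no summit lay within 250 bp. Sp2, Ptprs, Hdac4 and Phf19 are filled across all libraries, and the 5 at the bottom, from Carmil3 to Myrip, are empty in every LIN54 and p130 library.

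The 47 regions at internal starts were marked more often than the others in every LIN54 and p130 library. LIN54 marked 78.7% ± 10.8 (SD, n = 5) of them, against 57.2% ± 11.03 of the 1067 other regions on the same chromosomes, higher in 5 of 5 libraries (exact permutation p = 0.0625, the smallest possible, adjusted p = 0.0625). p130 marked 37.2% ± 11.5 (SD, n = 6), against 17.1% ± 4.38, higher in 6 of 6 libraries (exact permutation p = 0.03125, adjusted p = 0.0625). All 5 LIN54 libraries marked 24 of the 47, against 19.9% of all 1163 regions and 0.578% of eligible peaks. Both LIN54-KO libraries at q 0.01 marked 29 of the 47, against 29.9% of all regions and 0.92% of eligible peaks. Of the 16 regions with a p130 summit at q 0.01, 8 were among the 47. Shares over eligible peaks at internal starts are not given here. The 1684 regions within 500 bp of a gene end that all 4 STAG2 libraries shared stood higher still. There the mean LIN54 share was 81.2% ± 4.61 and the mean p130 share 42.5% ± 12.3, and the intragenic regions differed by -22.8 and -24.5 percentage points on average, lower in 5 of 5 and 6 of 6 libraries (exact permutation p = 0.0625 and p = 0.03125, adjusted p = 0.0625 for both).

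Regions outside genes that passed the same STAG2 rule were the closest set. There were 840 of them among 96949 eligible intergenic peaks, all over 5000 bp from any gene end. LIN54 marked 57.4% ± 10.5 (SD, n = 5) of the intergenic regions, and the intragenic regions were higher by 0.944 ± 1.59 percentage points, in 4 of 5 libraries (exact permutation p = 0.3125). p130 marked 18.4% ± 4.70 (SD, n = 6), and the intragenic regions differed by -0.374 ± 0.908 percentage points, higher in 3 of 6 libraries (exact permutation p = 0.4375). A difference between regions inside and outside genes was thus not detected in either antibody, and with summits matched within 100 bp the LIN54 difference was -1.37 percentage points.

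At the other end, 45 regions had no LIN54 or p130 summit in any library. The 5 of these with the best STAG2-WT rank lay in Carmil3 (a regulator of actin capping protein), Slc47a1 (an organic cation exporter), Usp6nl (a GTPase-activating protein of Rab5), Plec (plectin, which links intermediate filaments to hemidesmosomes) and Myrip (a linker of Rab27 and myosin). Carmil3 had STAG2 folds of 4.38 and 6.76 in WT and 3.20 and 2.78 in KO. The Plec peak was 6168 bp wide, with 4.96 and 5.07 in WT and 3.64 and 4.79 in KO. These folds were lower than those of the leading regions. At member summits the median number of fragments, recovered from the deposited fold and p, was 8 to 12 in STAG2, 8 to 11 in LIN54 and 6 to 7 in p130, over a median background of 1.76 to 2.68. A summit that is not listed is not shown to be absent, and depth as a cause was not tested. Reads copied by PCR were not examined here, and these fragment numbers give no measure of error between libraries.

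Several genes held clusters of regions. Ergic1, which encodes a protein of the compartment between endoplasmic reticulum and Golgi, held 5 in 96.2 kb, and Pde4d, a cAMP phosphodiesterase gene, held 5 in 1302 kb. Among genes with 4 regions were Pou2f3 (a POU transcription factor of tuft cells), Smim14 (a small membrane protein), Dnmbp (an activator of Cdc42), Elf1 (an ETS transcription factor), Slc22a23 (a transporter family member), Tango6, Plekha5 and Nhsl1. Among genes with 3 or more regions, the density was highest in Lmna, the gene of lamins A and C, with 3 regions in 28.8 kb (104 per Mb), and in Krt78, with 3 in 50.6 kb (59.3 per Mb). Regions of Slc22a23 were marked in 4.5 of 5 LIN54 libraries on average, those of Pou2f3 in 1.75.

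Genes of epithelial tissues were among the hosts. Of all 13322 protein-coding genes over 10000 bp long, 908 (6.82%) held a region, or 1.20 regions per Mb of gene. Among genes that mark basal urothelium, 5 of 8 over that length did (Trp63, Cd44, Itga6, Egfr and Dst, 6.59 per Mb), and among luminal markers 0 of 4. Of the urothelial transcription factors 4 of 14 did (Rxra, Grhl1, Grhl2 and Klf5, 9.34 per Mb), of cell junction genes 7 of 27 (among them Cdh1, Ctnnd1, Ocln and Pard3, 3.68 per Mb), and of growth factor receptors 6 of 24 (Egfr, Igf1r, Tgfbr3, Notch2, Lrp6 and Ptch1, 3.05 per Mb). Fibroblast markers had 0 of 9, immune markers 0 of 10, smooth muscle markers 1 of 8 (Synpo2) and endothelial markers 2 of 10 (Pecam1 and Vwf). Long genes of nervous tissue had 5 of 20 but 0.174 per Mb, with a median length of 1241 kb. Longer genes have more room for a region, and a gene list of this size carries no test here. The luminal genes spanned 0.0786 Mb in all, against 1.06 Mb for the basal genes. Fibroblast genes spanned 0.439 Mb and immune genes 0.575 Mb. At 1.20 regions per Mb such spans leave little room for a region, so a count of 0 there does not show an absence.

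The strongest regions of these lists were shared by the antibodies to different degrees. Egfr, the receptor of epidermal growth factor, held a region at chr11:16800353-16800888, 7257 bp from a gene end, with STAG2 folds of 5.64 and 8.90 in WT and 4.09 and 6.14 in KO. LIN54 folds at Egfr were 5.07, 3.88 and 4.23 in WT and 5.46 and 5.93 in KO. Dst, which encodes the plakin of basal hemidesmosomes, had STAG2 folds of 4.35 and 8.93 in WT and 5.54 and 5.87 in KO. At Egfr and Dst the STAG2 genotypes overlapped, and all 5 LIN54 libraries marked both of them.

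Itga6, the integrin of hemidesmosomes, was marked in 4 of 5 LIN54 libraries and no p130 library, with STAG2 folds of 4.25 and 6.69 in WT and 3.12 and 4.02 in KO. Ctnnd1, which encodes p120-catenin of adherens junctions, had STAG2 folds of 6.12 and 4.87 in WT and 4.50 and 3.42 in KO, and its summit lay 18 bp from an internal start. The retinoid receptor gene Rxra had 4.61 and 9.32 in WT and 3.22 and 2.81 in KO, with LIN54 in 5 of 5 libraries. Grhl2, a factor of epithelial identity, and Klf5, a factor of basal and luminal epithelium, each had LIN54 in 3 of 5 libraries. At Klf5 the STAG2 folds were 4.10 and 3.25 in WT and 3.47 and 4.43 in KO, which overlapped.

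Genes of cohesin, DREAM, the cell cycle and chromatin modifiers are read against the 6.82% of all genes over 10000 bp that held a region. Per Mb of gene these lists held, in this order, 0.886, 3.19, 1.74 and 1.95 regions, against 1.20 for all genes. Their median gene lengths were 44.9, 51.7, 31.3 and 88.3 kb, against 33.3 kb for all genes. No list was tested. Of 14 cohesin and loop genes over 10000 bp only Nipbl, which encodes the cohesin loader, held a region (7.14%), and its STAG2 folds of 2.53 and 2.59 in WT and 2.52 and 3.55 in KO did not reach q 0.01 in any library. Of 16 DREAM and MuvB genes, 3 did (18.8%). Rb1, the retinoblastoma gene, had STAG2 folds of 5.44 and 4.70 in WT and 2.86 and 4.41 in KO, and LIN54 in 4 of 5 libraries. E2f2, an activator E2F, was marked in 2 of 5 LIN54 libraries (q of 0.443 and 0.636) and Tfdp2, a DP partner, in none. The lowest STAG2 q at Tfdp2 was 0.105. Of 29 cell cycle genes, Cdk6, a kinase of early G1, and Anln, which encodes anillin of the cleavage furrow, held 1 region each (6.90% of the list), both with LIN54 in 3 of 5 libraries. The Cdk6 peaks were weak, with a lowest q of 0.269 in STAG2 and 0.111 in LIN54. At Anln the LIN54 q was under 0.01 in LIN54-KO replicate 2 alone (4.88e-10). Of 28 chromatin modifier genes 4 did (14.3%), among them Kdm2a, Kdm2b and Arid1b. The region of Arid1b, a subunit gene of BAF complexes, was marked in 5 of 5 LIN54 libraries, with STAG2 folds of 4.81 and 4.99 in WT and 2.56 and 2.93 in KO.

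At the thresholds of the choice there was no break in the values. The 64 regions whose farthest STAG2 summit lay 241 to 250 bp away had a median fold of 2.91 in STAG2-WT replicate 1 and were marked in a mean of 2.31 of 5 LIN54 and 1.09 of 6 p130 libraries. The 65 eligible peaks left out at 251 to 260 bp had 2.97, 2.26 and 1.02. The 66 regions 5001 to 6000 bp from a gene end had a median fold of 3.66 and means of 3.05 and 1.17, and the 79 peaks left out at 4000 to 5000 bp had 4.02, 2.90 and 1.58.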

How the data were processed

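Peak lists of 15 CUT&RUN libraries were used, and the 2 pMNase control samples of the 17 labelled were not analysed here. The submitters' processing notes name build mm10 and the tools bcl2fastq, Bowtie2 and MACS2. Their versions and settings, and whether a control entered the calls, are not given in the sources used here. Each deposited peak has a fold (the ratio of fragments at the summit to the local background), a −log10 p and a −log10 q, all the authors' values within 1 library, used to describe, rank and filter peaks. The deposited score repeats the −log10 p and was not used.

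A region was marked where a summit lay within 250 bp. Genes came from a RefSeq table of GRCm38.p6, on which mm10 is based (20665 protein-coding genes and 47042 genes of all kinds on chromosomes 1 to 19). Ends of all these genes counted as gene ends, and exons were not looked at. Promoter windows came from RefSeq, and those of chromosome 18 were not used here, nor was a genome sequence. Fragment counts were recovered from fold and p, and in each library 100% of marked eligible summits gave a whole count to within 0.001 of the deposited −log10 p.

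The library was the unit of each two-sided exact permutation test. Their p-values measure the spread between libraries labelled as biological replicates. The tests between region sets took WT and KO libraries together, so their spread also holds genotype. For p130 it holds batch as well, and over all 11 libraries also antibody. Adjusted p-values are Benjamini-Hochberg values over 8 tests. Regions were named by rule: the 10 best by mean rank of STAG2-WT fold and of STAG2-KO fold, 5 each by LIN54 and p130 among those marked in every library of that antibody (4 exist for p130), 5 marked in none of the 11, the 10 genes with the most regions, the 5 with the most per Mb among genes with at least 3 regions, and up to 3 hosts per gene list. Other list members that held a region are named beside their count, and some items are not reported here. The regions, lists and tests were chosen with earlier results of these data known. Alternatives were other distances, gene end limits, q 0.01, merged summits, a replicate block, batch 3 alone and each library left out. Tests used SciPy 1.17.1, tables pandas 2.3.3 and NumPy 2.4.6, and figures Matplotlib 3.10.9, all under Python 3.11.15, and the matching was tested on simulated data.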

Additional observations from a re-analysis of the deposited data

Results flagged for a closer look

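The KO minus WT difference in the share of intragenic regions marked was 16.2 percentage points for LIN54 and -5.85 for p130, with opposite signs on this measure. The difference between them was 22.0 percentage points (two-sided exact permutation test of genotype within each antibody, p = 0.015 over 200 arrangements), a test added after the data had been seen. With p130 of batch 3 alone it was 20.4 percentage points, and this value was not tested. On the log2 ratio to the eligible peaks both differences were positive, 0.59 for LIN54 and 0.06 for p130, and they differed by 0.52 (exact permutation p = 0.175). Antibody and batch cannot be told apart.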

How the results depend on the processing

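Of 120 alternative values, 103 kept their direction and their side of 0.05 (counts: stayed within 1.5 times) and 14 changed sign. For the KO minus WT results the smallest possible p was 0.1, so their side of 0.05 was fixed and only the direction could change. Leaving out regions at q 0.01 in all 15 libraries removed no region and repeats the main values. Batch 3 alone repeats the values without p130-WT replicate 1. The 103 therefore overstates how many alternatives could differ. The number of regions was 312 with summits within 100 bp, 2598 within 500 bp and 77 with q 0.01 in all 4 STAG2 libraries, and 1350 with ends of protein-coding genes alone, a setting added after the data had been seen, as was leaving out regions near internal starts. The p130 log2 ratio difference (0.06) was -0.0948 for regions at q 0.01 in both STAG2-WT libraries and -0.0306 in batch 3 alone, which is also the value without p130-WT replicate 1, and -0.0475 without p130-KO replicate 1. The intragenic minus intergenic difference for LIN54 (0.944 percentage points) was -1.37 at 100 bp, -0.794 over 10000 bp from gene ends, -0.868 with protein-coding ends alone and -0.192 without regions within 500 bp of an internal start. For p130 (-0.374) it was 0.0115 with protein-coding ends alone. Over all 11 libraries (0.225, exact permutation p = 0.597) it was -0.931 at 100 bp (exact permutation p = 0.0166), -0.523 over 10000 bp, -0.388 with protein-coding ends and -0.788 without internal starts. The cause was not tested.

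With each library left out in turn, the KO minus WT share ran from 11.1 to 19.2 percentage points for LIN54 and from -8.40 to -4.23 for p130, at q 0.01 from 25.3 to 31.4 and from -0.330 to -0.158, and the log2 ratio from 0.48 to 0.70 and from -0.05 to 0.21. The intragenic minus intergenic difference ran from 0.493 to 1.58 for LIN54, from -0.543 to -0.0769 for p130 and from -0.0269 to 0.434 over both, the last turned by leaving out LIN54-KO replicate 2. The deviations of same-numbered WT and KO libraries had correlations of -0.00114 and 0.0405 for LIN54, and -0.0225, -0.0338 and 0.0344 for p130. With 2 LIN54-KO libraries the deviations mirror each other, and p130 has few libraries too. These values therefore cannot decide whether equal numbers mark pairs. With the replicate number as a block, the share differed by 11.1 percentage points for LIN54, which is the value without LIN54-WT replicate 3. For p130 it differed by -5.85. With so few pairs no p could fall under 0.05, so the block could not change a call. The median number of fragments at the listed summits of the regions was 6 to 12 per library, and depth as a cause of absent summits was not tested.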
